A study of Mus musculus with 15 samples.

Results

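Sulfotransferases and flavin-containing monooxygenases, families of drug-metabolizing enzymes, were followed in liver RNA of mice fed fat-rich diets: 5 of the first kind (Sult1a1, Sult1b1, Sult1d1, Sult2a8 and Sult5a1) and 4 of the second (Fmo1, Fmo2, Fmo4 and Fmo5). These 9 genes were taken by name from a table of 56980 gene IDs, and all 9 passed the filter on low counts that left 14627 genes for testing. The animals were wild-type C57BL/6J males (genotype label WT), 15 weeks old when 1 of 3 diets began and kept on it for 9 months. The ketogenic diet (label Keto_ALF) held 89.9% fat and had 5 libraries, the high-fat diet (HFD_ALF) held 60% fat and had 5, and the control diet (Control_ALF) held 10% fat and had 4. Control replicate 1 was excluded by the submitters as contaminated and enters no comparison. Whether the libraries stem from different mice is not stated in the labels, so p-values reflect only how these samples vary, which may be technical. The question of the study was how a ketogenic diet affects hepatic gene expression.

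Sulfotransferases move a sulfonate group from PAPS, the activated form of sulfate, onto phenols, steroids, bile acids and thyroid hormones, which makes these molecules more soluble and easier to excrete. Flavin-containing monooxygenases use NADPH and oxygen to oxidize nitrogen and sulfur atoms in drugs, dietary amines and some endogenous compounds. Both families are abundant in hepatocytes, and several members differ between male and female mouse liver.

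Total counts ran from 16329425 to 25349148 per library over the 14 libraries used. Levels are given as CPM, that is, counts relative to library size with TMM scaling, and differences are log2 fold changes with their standard error (SE) from edgeR's quasi-likelihood test, with p-values adjusted by the Benjamini-Hochberg method over all 14627 genes and a threshold of 0.05. All 10 hepatocyte marker genes were detected in every diet. Their summed level was 74429 to 123761 CPM in ketogenic, 94416 to 129813 CPM in high-fat and 136438 to 170235 CPM in control livers. Tested singly against control, 1 of the 10 was called higher and 3 lower in ketogenic livers. In high-fat livers 1 was higher and 1 lower, so the sums do not describe each marker. Ketogenic replicate 5 stood apart from the other 4 ketogenic libraries: it held the lowest hepatocyte sum of all 14 libraries and, at 844 CPM, 221 CPM and 855 CPM, the highest sums of the macrophage, cholangiocyte and stellate cell marker lists. Results of the 9 genes that this library moves are therefore given with and without it. In bulk tissue, fewer cells of a type and less RNA per cell cannot be told apart.

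The 9 genes lie at 6 places in the genome. Fmo4, Fmo1 and Fmo2 are consecutive protein-coding genes on chromosome 1, with Fmo6 next in line, and Fmo5 lies on chromosome 3. Sult1b1, Sult1d1 and Sult1e1 are consecutive on chromosome 5, Sult2a8 lies beside Sult2a7 on chromosome 7, Sult1a1 is elsewhere on chromosome 7 and Sult5a1 is on chromosome 8. No 50-base stretch of any member's annotated transcripts occurs in another gene of the 2 families. Sult1a1 shares 6.58% of its 50-base stretches with the predicted gene Gm6939, and its exons overlap those of Sgf29 on the opposite strand. The sources used here do not give the strand setting of the counting. Whether reads of Sult1a1 and Sgf29 over that overlap were counted apart is therefore not known.

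Sult1b1 and Sult1d1 are direct neighbours on the same strand and moved in opposite directions in ketogenic livers, so their promoter sequences are printed here. Each runs from 250 bases before to 50 bases after an annotated transcript start on the minus strand and comes from RefSeq on build GRCm38.p6. Capitals mark 2 short motifs searched on both strands, AGGTCA, the core element that many nuclear receptors recognize, and GTTAAT, part of the element of hepatocyte nuclear factor HNF1, which do not overlap each other in these windows.
Sult1b1 start 1, chr5:87538146-87538445: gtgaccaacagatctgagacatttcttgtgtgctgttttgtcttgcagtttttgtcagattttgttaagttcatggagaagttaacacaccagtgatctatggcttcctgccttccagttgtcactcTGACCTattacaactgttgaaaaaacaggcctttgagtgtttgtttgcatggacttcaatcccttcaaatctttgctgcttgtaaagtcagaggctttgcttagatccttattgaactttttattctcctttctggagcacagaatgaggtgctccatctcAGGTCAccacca
Sult1b1 start 2, chr5:87536173-87536472: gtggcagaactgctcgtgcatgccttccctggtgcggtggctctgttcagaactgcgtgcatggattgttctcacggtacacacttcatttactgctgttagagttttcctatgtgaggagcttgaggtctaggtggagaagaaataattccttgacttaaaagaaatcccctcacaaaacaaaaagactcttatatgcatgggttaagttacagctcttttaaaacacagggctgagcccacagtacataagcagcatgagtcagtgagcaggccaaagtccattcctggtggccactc
Sult1d1, chr5:87568957-87569256: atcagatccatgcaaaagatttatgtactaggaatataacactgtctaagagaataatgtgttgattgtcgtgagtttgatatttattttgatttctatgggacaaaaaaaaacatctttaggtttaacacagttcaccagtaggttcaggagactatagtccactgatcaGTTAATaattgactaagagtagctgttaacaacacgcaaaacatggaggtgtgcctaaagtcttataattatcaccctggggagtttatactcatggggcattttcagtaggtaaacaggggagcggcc
Counted from 0 at the transcript start, the upstream Sult1b1 start had AGGTCA beginning at positions -123, as its complement, and 38, and no GTTAAT. The other Sult1b1 start had neither motif. Sult1d1 had GTTAAT at position -79 and no AGGTCA. Among 32851 mouse promoters of the same length, 16.3% held AGGTCA and 7.1% held GTTAAT. RefSeq entries were found for 8 of the 9 genes; Fmo1 had none. Of the other windows, AGGTCA was found in the second start of Sult2a8 and of Fmo2 and in Fmo4, and GTTAAT in Sult1a1. Neither motif was found in the Sult5a1 or Fmo5 windows, which says only that these letters are not there.

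Per kilobase of exon, the members spanned more than 2 orders of magnitude. Fmo5, which can insert oxygen into ketones, was the highest in every diet. It was at 270.4 ± 18.8 CPM per kb in ketogenic, 284 ± 24.6 in high-fat and 276 ± 60.0 in control livers (SD, n = 5, 5 and 4). Sult2a8, a bile acid sulfotransferase of mouse liver, and Sult1a1, which sulfonates small phenols, followed. Sult2a8 stood at 229.7, 159 and 225 CPM per kb and Sult1a1 at 159.9, 198 and 187 CPM per kb in ketogenic, high-fat and control livers. The library ranges of these 3 genes overlapped with the neighbour in the order in ketogenic and control livers, and in high-fat livers only Fmo5 stood clear. A middle tier held Sult1d1, at 42.6, 58.3 and 68.5 CPM per kb, and Fmo1, at 52.2, 50.6 and 36.8 CPM per kb in ketogenic, high-fat and control livers. Fmo1 ranked above Sult1d1 in ketogenic livers and below it in the other 2 diets, and the ranges of the pair were clear of each other only in control livers. Sult1b1 came sixth in all 3 diets. Sult5a1 was seventh in ketogenic livers, at 5.53 CPM per kb, and last in high-fat and control livers, at 1.70 and 1.14 CPM per kb. Fmo2 and Fmo4 filled the remaining low ranks.

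**Figure D1:**
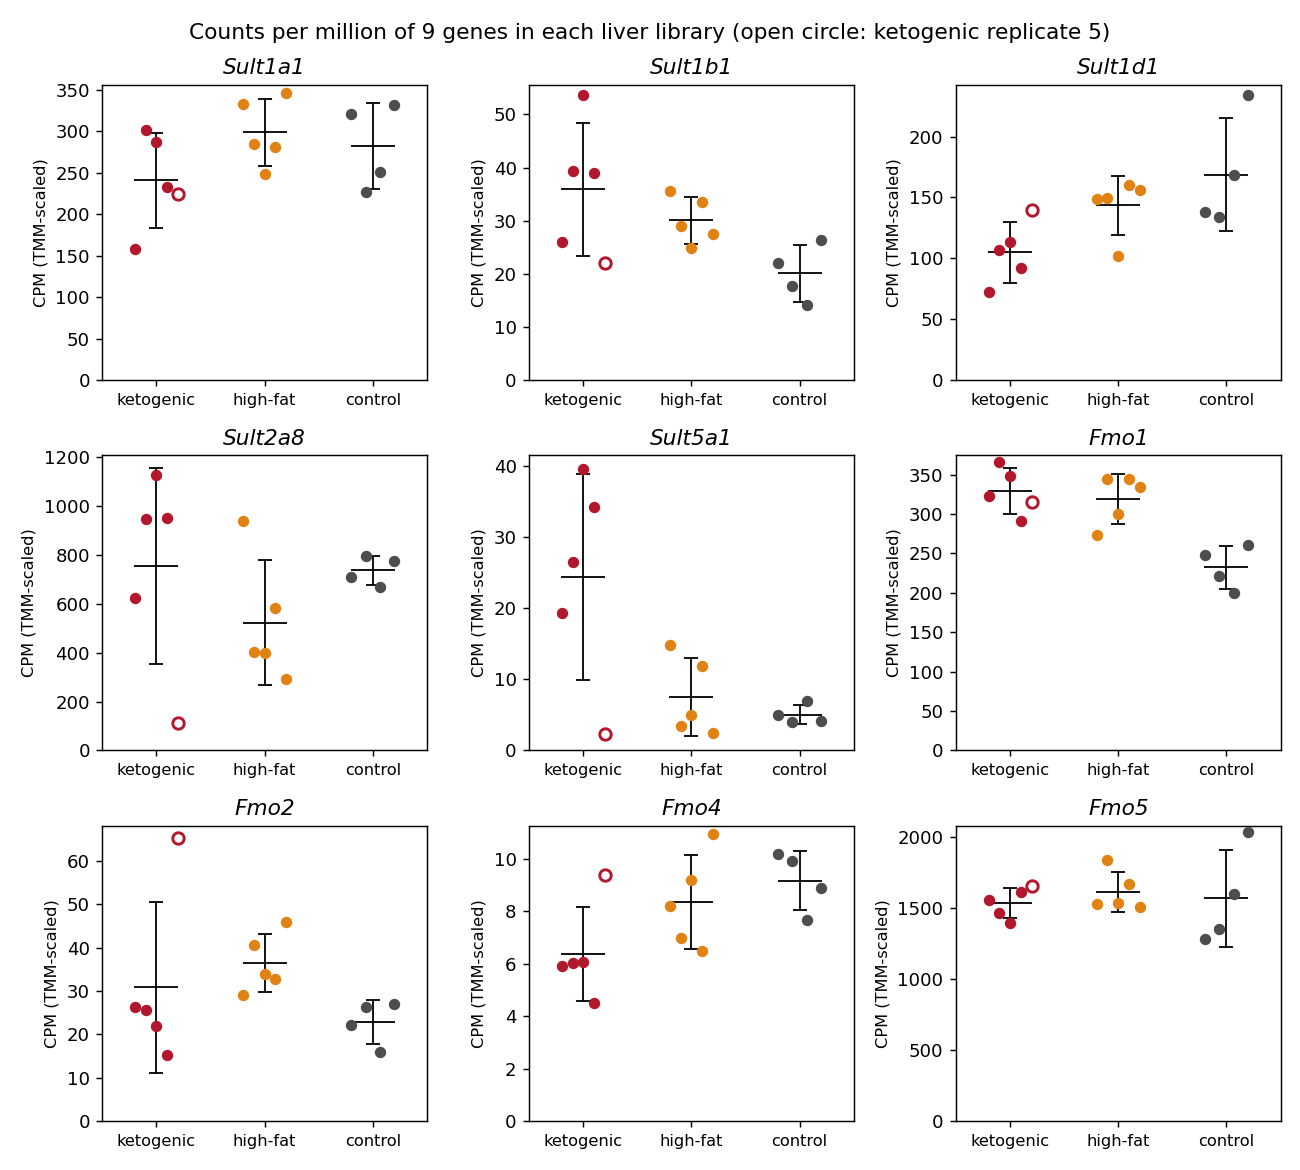
Level of each of the 9 genes (CPM, TMM-scaled, linear axis from 0) in every library of the ketogenic (n = 5), high-fat (n = 5) and control (n = 4) diets; points are libraries, and bars show the mean and SD. Fmo1 is at 291 to 366 CPM in ketogenic and 273 to 345 CPM in high-fat livers, above all controls, and the open circle, ketogenic replicate 5, is the lowest point for Sult2a8 and Sult5a1 and the highest for Fmo2.

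In ketogenic against control livers, 3 of the 9 genes passed the test: Fmo1 and Sult1b1 rose and Sult1d1 fell. Over all genes tested, 12.1% passed in this comparison. The libraries of both diets did not overlap for 1 of the 9 genes, Fmo1, against 12.5% of all genes. In high-fat against control livers, 1 of the 9 genes passed, again Fmo1, against 12.0% of all genes, and Fmo1 and Fmo2 did not overlap, against 16.2%. In ketogenic against high-fat livers, edgeR called 0 of the 9 genes, and DESeq2 and limma-voom also called 0; 0.0615% of all genes passed edgeR's test there, and the groups did not overlap for 1.76% of all genes and none of the 9. At an unadjusted p under 0.05, 2 of the 9 genes differed between ketogenic and high-fat livers, against 8.70% of all genes. The median log2 fold change of the 9 genes was 0.03 in ketogenic against control, 0.08 in high-fat against control and -0.07 in ketogenic against high-fat livers, beside 0.03, 0.01 and 0.02 over all genes tested. Both fat-rich diets were compared with the same 4 control libraries, so those results are not independent of each other.

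**Figure D2:**
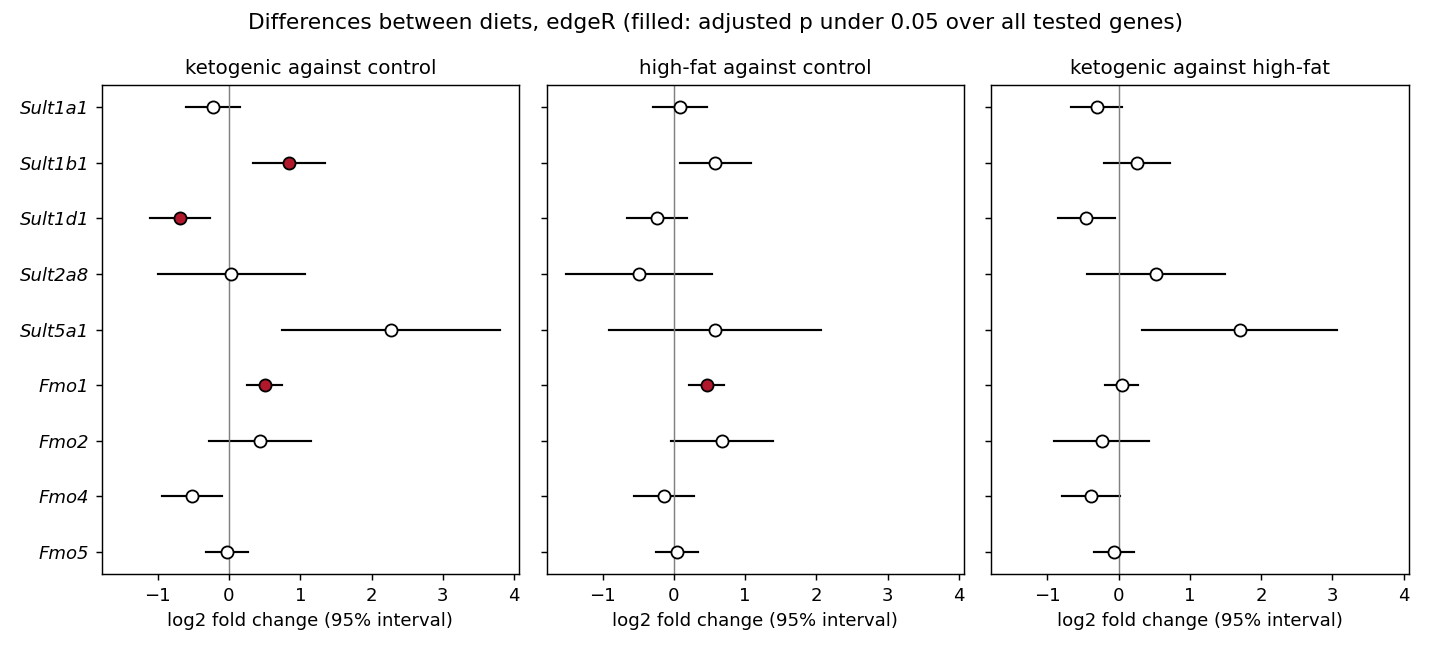
Log2 fold change of each gene with its 95% interval (edgeR) in ketogenic against control, high-fat against control and ketogenic against high-fat livers; filled points have an adjusted p under 0.05 over all genes tested. Fmo1 is filled in both comparisons with control, at 0.50 and 0.46, Sult1b1 and Sult1d1 only in ketogenic against control, and the widest intervals belong to Sult2a8 and Sult5a1.

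Fmo1, which oxidizes many tertiary amines and sulfides and, in mice, converts hypotaurine to taurine, was the member that separated both fat-rich diets from control. It was at 323, 366, 349, 291 and 316 CPM in ketogenic replicates 1 to 5 and at 273, 345, 299.6, 345 and 334 CPM in high-fat replicates 1 to 5. Control replicates 2 to 5 were at 248, 221, 199.8 and 261 CPM. Every library of either fat-rich diet was thus above every control library. Fmo1 was 1.42-fold higher in ketogenic than in control livers (log2 fold change 0.50 ± 0.12 SE, 95% interval 0.25 to 0.75, edgeR adjusted p = 0.0107). The high-fat difference was 1.37-fold (log2 0.46 ± 0.12, interval 0.21 to 0.71, edgeR adjusted p = 0.0188). Ketogenic and high-fat livers differed by 0.04 ± 0.11 in log2, with an interval of -0.19 to 0.27 (edgeR adjusted p = 0.971). The ketogenic call held in all 23 alternatives, with adjusted p up to 0.0495. The high-fat call was lost without high-fat replicate 4, control replicate 3 or control replicate 4 (adjusted p 0.0515, 0.0631 and 0.0795) and with no filter on low counts (0.0544).

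Fmo2, the main family member in the lung of many mammals, was at 26.3, 25.6, 21.9, 15.3 and 65.4 CPM in ketogenic replicates 1 to 5. High-fat replicates 1 to 5 had 29.1, 40.6, 33.8, 32.9 and 46.0 CPM, and control replicates 2 to 5 had 22.1, 26.3, 15.98 and 27.0 CPM. All 5 high-fat libraries were above all 4 controls, while 4 ketogenic libraries lay in the control range or just below it and replicate 5 was the highest of all. The high-fat difference did not pass the test (log2 0.68 ± 0.34, edgeR adjusted p = 0.209), but passed without ketogenic replicate 5, which enters the shared estimate of spread (log2 0.66, adjusted p = 0.0223), and in a fit of the 2 diets alone (adjusted p = 0.0167). In ketogenic against control livers the log2 difference was 0.44 with all libraries (edgeR adjusted p = 0.418) and -0.05 without replicate 5 (adjusted p = 0.894). Lung epithelium markers summed to at most 0.513 CPM in any library, and Sftpc, Sftpb and Scgb1a1 were at 0 in all 3 diets. Markers of some other tissues were higher. Pancreatic acinar sums were 6.88 to 275 CPM in ketogenic, 91.9 to 658 CPM in high-fat and 25.4 to 1486 CPM in control livers. In the same order, intestinal and gallbladder sums were 141 to 190, 113 to 170 and 29.9 to 117 CPM. Adipocyte sums were 11.5 to 170, 12.2 to 46.4 and 2.63 to 17.7 CPM. Of the 7 intestinal and gallbladder genes, 3 had enough counts to be tested. Against control, 2 were called higher and 1 lower in ketogenic, and 1 higher and 0 lower in high-fat livers. Cdx2 of that list was at 0 counts in both fat-rich diets. The part of other tissues in the gene levels was not tested.

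Fmo4, whose substrates are little known, was the lowest FMO member per kilobase. Its level was 5.90, 6.04, 6.08, 4.502 and 9.37 CPM in ketogenic replicates 1 to 5. It was at 8.21, 6.99, 9.21, 6.48 and 10.9 CPM in high-fat replicates 1 to 5 and at 10.2, 9.93, 7.68 and 8.91 CPM in control replicates 2 to 5. Ketogenic replicates 1 to 4 were below every control, and replicate 5 was inside the control range. With all libraries the ketogenic against control difference did not pass (log2 -0.52 ± 0.20, interval -0.94 to -0.10, edgeR adjusted p = 0.101); without replicate 5 it did (log2 -0.72, adjusted p = 0.0111). The high-fat against control difference was -0.13 in log2 (edgeR adjusted p = 0.712).

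Fmo5 was at 1392 to 1651 CPM in ketogenic, 1504 to 1833 CPM in high-fat and 1280 to 2035 CPM in control livers, and the 3 ranges overlapped. Its log2 difference was -0.03 ± 0.14 in ketogenic against control (interval -0.33 to 0.27, edgeR adjusted p = 0.919) and 0.04 ± 0.14 in high-fat against control livers (interval -0.25 to 0.34, adjusted p = 0.878). Fmo5 alone made up 80.7% ± 2.17 of the summed CPM of the 4 FMO members in ketogenic, 81.6% ± 1.41 in high-fat and 85.3% ± 2.697 in control livers (SD, n = 5, 5 and 4). The summed FMO level was 1769 to 2041 CPM in ketogenic, 1838 to 2225 CPM in high-fat and 1560 to 2332 CPM in control livers, so the rise of Fmo1 left no separation in the family total.

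Sult1b1, which sulfonates thyroid hormones and phenols, was at 25.97, 39.3, 53.6, 39.0 and 21.9 CPM in ketogenic replicates 1 to 5. High-fat replicates 1 to 5 had 35.7, 28.9, 24.8, 33.5 and 27.5 CPM, and control replicates 2 to 5 had 22.1, 17.7, 14.1 and 26.4 CPM. Ketogenic replicates 2, 3 and 4 were above every control, and replicates 1 and 5 were not. Sult1b1 was 1.79-fold higher in ketogenic than in control livers (log2 0.84 ± 0.24, interval 0.34 to 1.34, edgeR adjusted p = 0.0299). The high-fat difference of 0.58 ± 0.24 in log2 did not pass (edgeR adjusted p = 0.12), and passed with library totals as the scaling (0.0251) or in a fit of those 2 diets alone (0.0327). The ketogenic call was lost in 8 of 23 alternatives, among them leaving out ketogenic replicate 2, 3 or 4 (adjusted p 0.0602, 0.0527 and 0.0536) or control replicate 3 or 4 (0.0919 and 0.107). Without ketogenic replicate 5 the log2 fold change was 0.96 (adjusted p = 0.00708).

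Sult1d1, which in mice sulfonates catecholamines and other biogenic amines, moved the other way. It was at 72.4, 107, 113, 92.0 and 139 CPM in ketogenic replicates 1 to 5, at 149, 149, 102, 160.4 and 156 CPM in high-fat replicates 1 to 5, and at 138, 133, 168 and 234 CPM in control replicates 2 to 5. Ketogenic replicates 1 to 4 were below every control, and replicate 5 was just above the lower pair of controls. Sult1d1 was 0.622 times its control level in ketogenic livers (log2 -0.69 ± 0.20, interval -1.11 to -0.26, edgeR adjusted p = 0.0338). High-fat against control livers differed by -0.23 ± 0.20 in log2 (edgeR adjusted p = 0.479), and ketogenic against high-fat livers by -0.45 ± 0.19 (interval -0.85 to -0.05, unadjusted p = 0.0291, adjusted p = 0.495). The ketogenic against control call was lost in 8 of 23 alternatives, among them leaving out ketogenic replicate 1, 2 or 4 (adjusted p 0.0774, 0.0611 and 0.0659) or control replicate 4 or 5 (0.0788 and 0.139) and library totals (log2 -0.49, 0.105). Without ketogenic replicate 5 it was -0.83 in log2 (adjusted p = 0.0103).

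Sult5a1, a family member with no settled substrate, showed the widest fold difference of the 9 genes and narrowly missed the threshold. It was at 19.4, 26.6, 39.6, 34.2 and 2.38 CPM in ketogenic replicates 1 to 5. High-fat replicates 1 to 5 had 14.8, 3.50, 4.98, 11.8 and 2.44 CPM, and control replicates 2 to 5 had 4.98, 4.07, 6.97 and 4.11 CPM. Ketogenic replicates 1 to 4 were above every high-fat and control library, and ketogenic replicate 5 was the lowest of all 14. The fitted ketogenic against control difference was 4.84-fold (log2 2.27 ± 0.70, interval 0.75 to 3.80, edgeR adjusted p = 0.0546). Without ketogenic replicate 5 it was 2.55 in log2 (adjusted p = 0.00682), and the difference from high-fat livers was 1.99 (adjusted p = 0.0483), against 1.70 ± 0.63 with all libraries (interval 0.33 to 3.06, edgeR adjusted p = 0.427). The control comparison also passed with DESeq2 (0.00884), with library totals (0.0222), with control replicate 1 put back (0.0245) and without high-fat replicate 1 or 5 (0.0473 and 0.0468). In high-fat against control livers the log2 difference was 0.58 ± 0.69, with an interval of -0.91 to 2.06 (edgeR adjusted p = 0.631).

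Sult2a8 varied more within the fat-rich diets than between any 2 diets. It was at 625, 949, 1129.6, 953 and 114 CPM in ketogenic replicates 1 to 5 and at 938, 403, 399.6, 584 and 292 CPM in high-fat replicates 1 to 5, while control replicates 2 to 5 had 709, 797, 669 and 775 CPM. Of the 5 high-fat libraries, 4 were below every control, and of the 5 ketogenic libraries 3 were above and 2 below every control. The log2 difference was 0.03 ± 0.48 in ketogenic against control (edgeR adjusted p = 0.973), -0.49 ± 0.48 in high-fat against control (adjusted p = 0.54) and 0.53 in ketogenic against high-fat livers (adjusted p = 0.83). Without ketogenic replicate 5, the difference was 0.29 in ketogenic against control (adjusted p = 0.564) and 0.80 in ketogenic against high-fat livers (adjusted p = 0.134). The ketogenic against control interval with all libraries reaches from -1.0 to 1.06 in log2, so changes within that range are not excluded.

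In ketogenic livers Sult2a8 and Sult5a1 were both highest in replicate 3, then 4, 2, 1 and 5. In high-fat livers both were highest in replicate 1, then 4, and lowest in replicate 5, but replicates 2 and 3 stood in a different order (403 and 399.6 CPM for Sult2a8, 3.50 and 4.98 CPM for Sult5a1). Fmo2 was lowest in high-fat replicate 1 and highest in replicate 5 of either diet. The summed hepatocyte markers of ketogenic replicates 3, 4, 2, 1 and 5 were 122934, 122495, 123761, 93963 and 74429 CPM, and those of high-fat replicates 1 to 5 were 127754, 111225, 94416, 129813 and 113371 CPM. The lowest high-fat hepatocyte sum was in replicate 3. Macrophage marker sums of high-fat replicates 1 to 5 were 398, 593, 613, 384 and 588 CPM. Cholangiocyte marker sums of the same libraries were 74.0, 89.9, 104, 99.4 and 109 CPM. The part of cell composition in these orders was not tested.

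**Figure D3:**
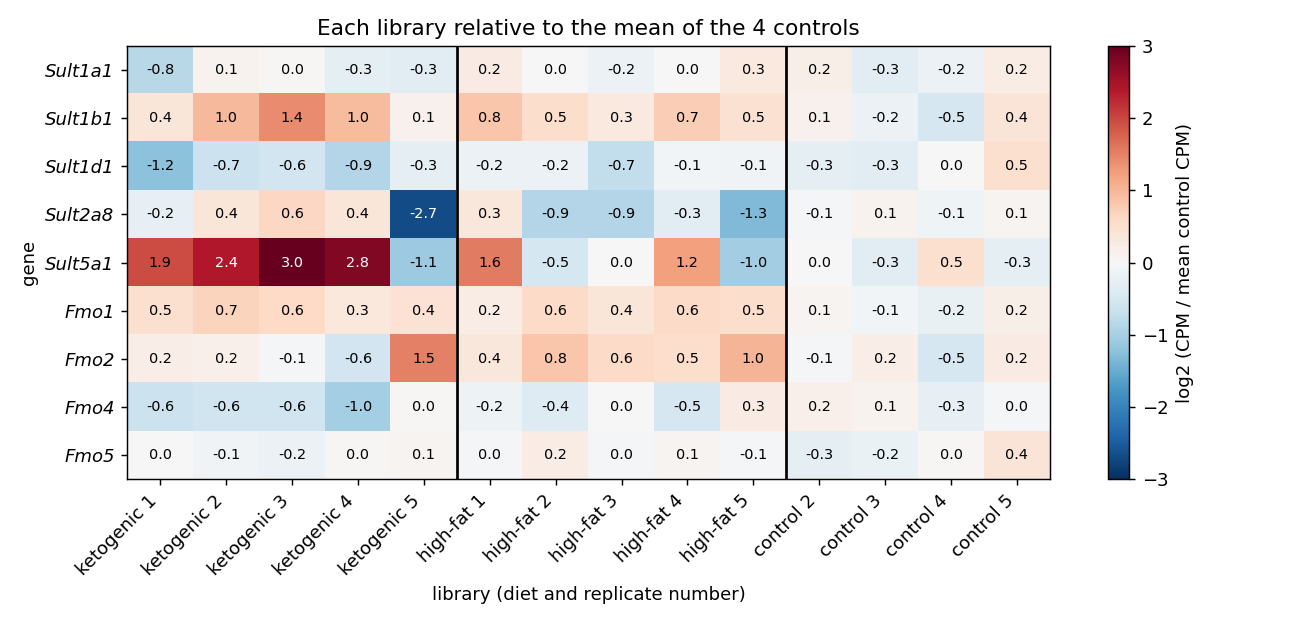
Each cell gives log2 of a library's CPM over the mean CPM of the 4 control libraries, for the 9 genes (rows) and 14 libraries (columns, ketogenic, high-fat and control from left to right). Red is above and blue below the control mean: Sult5a1 is at 1.9 to 3.0 in ketogenic replicates 1 to 4 and -1.1 in replicate 5, Sult2a8 is at -2.7 in that library, and the Fmo1 row is above 0 in all 10 libraries of the fat-rich diets.

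Sult1a1 was at 159, 302, 288, 233 and 224 CPM in ketogenic replicates 1 to 5, at 249 to 347 CPM in high-fat and at 226 to 332 CPM in control livers. The 3 ranges overlapped. Its log2 difference was -0.23 in ketogenic against control (edgeR adjusted p = 0.424), 0.08 ± 0.18 in high-fat against control (interval -0.30 to 0.46, adjusted p = 0.811) and -0.31 in ketogenic against high-fat livers (adjusted p = 0.64). The summed level of the 5 SULT members was 502 to 1624 CPM in ketogenic livers, with a median of 1351 CPM, 780 to 1471 CPM in high-fat livers, with a median of 869 CPM, and 1110 to 1371 CPM in control livers, with a median of 1187 CPM. Sult2a8 gave 22.7% to 70.5% of that sum in ketogenic, 35.4% to 63.8% in high-fat and 56.5% to 67.6% in control livers.

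**Figure D4:**
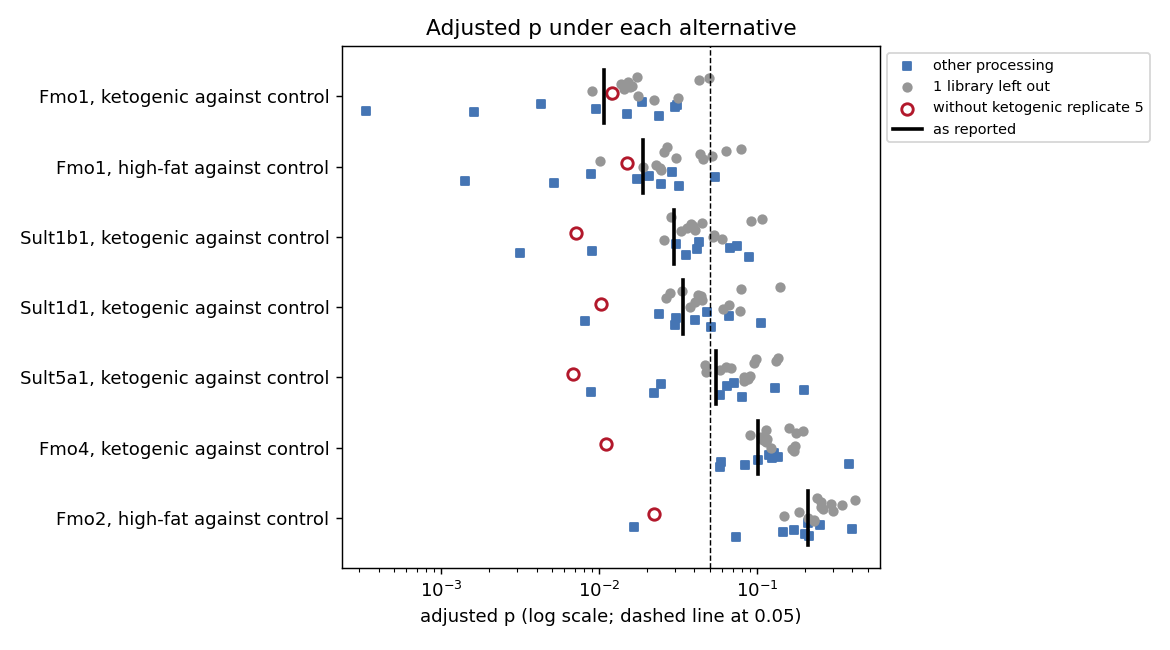
Adjusted p (log axis; dashed line at 0.05) of 7 gene and diet pairs as reported (black bar), under other processing (blue squares) and with 1 library left out (grey circles; red open circle, ketogenic replicate 5). For Fmo1 in ketogenic against control livers all points are left of the line, up to 0.0495, and for Sult5a1, Fmo4 and Fmo2 leaving out ketogenic replicate 5 gives 0.00682, 0.0111 and 0.0223.

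Of the 19 other SULT and FMO genes in the table, 4 had enough counts to be tested. Sult2a7, the neighbour of Sult2a8, was at 0.721, 0.435, 0.919, 0.368 and 1.06 CPM in ketogenic replicates 1 to 5, at 1.363 to 3.36 CPM in high-fat and at 1.68 to 3.12 CPM in control livers. Every ketogenic library was below every library of the other 2 diets. Sult2a7 fell by 1.61 ± 0.34 in log2 in ketogenic against control livers (edgeR adjusted p = 0.00644, up to 0.0334 over 23 alternatives). Against high-fat livers it differed by -1.65 ± 0.33 in log2 (edgeR adjusted p = 0.0736). That difference passed without ketogenic replicate 5 (log2 -1.87, edgeR adjusted p = 0.0102), with no filter (0.0384) and with DESeq2 (0.000738), and the adjusted p was up to 0.224 over 23 alternatives. Sult1c2 was at 5.70 to 7.35 CPM in ketogenic, 7.46 to 13.3 CPM in high-fat and 4.19 to 9.59 CPM in control livers; the ketogenic and high-fat libraries did not overlap, with a log2 difference of -0.59 (edgeR adjusted p = 0.36). Sult1e1, the estrogen sulfotransferase, was at 0.153 to 0.676 CPM in ketogenic replicates 1 to 4 and at 7.32 CPM in replicate 5, with 0.597 to 1.17 CPM in high-fat and 0.400 to 1.02 CPM in control livers. The 15 genes not tested had at most 33 counts over all 14 libraries, and 6 of them were at 0 counts in every library, namely Sult2a4, Sult2a5, Sult2a6, Sult3a2, Fmo6 and Fmo9.

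A further 6 lists of genes around these enzymes were examined in the same fit, with 106 tested genes in all. In ketogenic against control livers 16 of the 106 were called higher and 9 lower, beside 7.47% and 4.60% of all genes. In high-fat against control livers 16 were higher and 3 lower, beside 6.95% and 5.01% of all genes. In ketogenic against high-fat livers edgeR called 1, lower, beside 0.0615% of all genes, and 13 of the 106 had an unadjusted p under 0.05, beside 8.70% of all genes. Without ketogenic replicate 5 that comparison gave 6 calls in these lists, 3 higher and 3 lower, where 315 genes in all were called. Of the 6, 3 were glucuronidation genes (2 higher, 1 lower), 2 were oxidases, reductases or hydrolases (both lower) and 1 was a transcription factor (higher). There were 2 calls without control replicate 5 and 0 without ketogenic replicate 1, 2 or 4 or high-fat replicate 2 or 4. The 25 calls in ketogenic against control livers were 13 without control replicate 5, 14 without ketogenic replicate 2 and 16 without control replicate 3 or 4. The 19 in high-fat against control livers were 12 without control replicate 4 and 26 without ketogenic replicate 5, among them 3 small-molecule transferases and 4 transcription factors.

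Of 14 tested genes that supply sulfate and build or clear PAPS, 1 was higher and 0 lower in ketogenic and again in high-fat against control livers, with median log2 differences of -0.05 and 0.03; with 1 library left out, 1 to 2 genes were called in either comparison. That gene was Suox, the sulfite oxidase that makes sulfate from sulfite, at 121 ± 23.3 CPM in ketogenic, 136 ± 14.2 CPM in high-fat and 76.0 ± 8.20 CPM in control livers (SD, n = 5, 5 and 4). Its edgeR adjusted p was 0.00724 in ketogenic and 0.00194 in high-fat livers, both against control. Sulfatases, which remove sulfate, showed 4 of 12 higher and 0 lower in either comparison with control, with medians of 0.27 in ketogenic and 0.14 in high-fat livers. Sulf2, which trims sulfates from heparan sulfate outside the cell, rose by 1.73 ± 0.26 in log2 in ketogenic and by 1.96 ± 0.26 in high-fat livers (edgeR adjusted p = 0.000505 and 0.000367). The lysosomal sulfatase Arsa also rose, by 0.84 in log2 in ketogenic and 0.81 in high-fat livers (edgeR adjusted p = 0.011 and 0.0149). Arsg rose by 0.61 and 0.68 (adjusted p = 0.0241 and 0.0149). The lysosomal sulfatase Arsb rose in high-fat livers (log2 0.51, adjusted p = 0.0125). Over 23 alternatives, the Arsg calls were lost in 5 and 2, and the high-fat Arsa call in 1. The remaining sulfatase called in ketogenic livers had an edgeR adjusted p of 0.0476, a call lost in 18 of those alternatives. Leaving out 1 library in turn, the count of sulfatases called ran from 2 to 6 in ketogenic and from 2 to 5 in high-fat livers. Stellate cell and fibroblast markers, whose cells also express sulfatases, summed to 435 to 855 CPM in ketogenic, 521 to 680 CPM in high-fat and 376 to 423 CPM in control livers, and their part in the sulfatase values was not tested.

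Glucuronidation, the other main conjugation route, moved both ways. Of 19 tested genes of this route, 2 were higher and 4 lower in ketogenic, and 1 higher and 2 lower in high-fat, against control livers; leaving out 1 library in turn gave 2 to 7 and 1 to 4 calls. Ugdh, which makes UDP-glucuronic acid, rose by 0.83 ± 0.18 in log2 in ketogenic livers (edgeR adjusted p = 0.00618). Its high-fat rise was 0.62 in log2 (edgeR adjusted p = 0.0317), a call lost in 9 of 23 alternatives. Ugp2, which makes its precursor UDP-glucose, fell by 0.68 ± 0.17, and Ugt1a5 fell by 1.361 ± 0.33 (edgeR adjusted p = 0.0161 and 0.0158). Without control replicate 5 these calls were lost (0.0691 and 0.0612). The Ugp2 call was also lost with library totals (log2 -0.49, edgeR adjusted p = 0.108) and the Ugt1a5 call with no filter (0.0522). In high-fat livers Ugt2b38 fell by 2.59 ± 0.52 in log2 (edgeR adjusted p = 0.00539). In ketogenic livers it fell by 1.63 (edgeR adjusted p = 0.0448), a call lost in 14 of 23 alternatives. Genes of the Ugt1a and Ugt2b clusters resemble each other closely, and the rule for shared reads is not known here, so values of single members are uncertain.

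Other oxidases, reductases and hydrolases of foreign compounds held more calls, with 7 higher and 2 lower of 24 in ketogenic, and 7 higher and 1 lower in high-fat, against control livers; leaving out 1 library in turn gave 5 to 10 and 5 to 9 calls. Aldh1a1, a retinaldehyde dehydrogenase, was at 2158 ± 452 CPM in ketogenic, 1913 ± 209 CPM in high-fat and 847 ± 168 CPM in control livers (SD, n = 5, 5 and 4; edgeR adjusted p against control 0.000261 and 0.000962). Aox1, aldehyde oxidase, rose by 1.24 ± 0.19 in log2 in ketogenic and by 0.999 in high-fat livers (edgeR adjusted p = 0.000488 and 0.00297). Nqo1, a quinone reductase, rose by 1.56 in log2 in ketogenic and by 1.70 ± 0.28 in high-fat livers (adjusted p = 0.00155 and 0.00118). Cyb5r3, the cytochrome b5 reductase, fell by 0.79 ± 0.12 in log2 in ketogenic against control (edgeR adjusted p = 0.000454) and by 0.76 ± 0.11 in ketogenic against high-fat livers (adjusted p = 0.0223). The second of these calls was lost without ketogenic replicate 1, 2 or 4 (0.06, 0.0743 and 0.0871) and without high-fat replicate 2 or 4 (0.0664 and 0.0647). It was also lost in an edgeR fit of those 2 diets alone (adjusted p = 0.0627).

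Among 16 other small-molecule transferases, 1 was higher and 2 lower in ketogenic and 1 higher and 0 lower in high-fat against control livers. Acsm3, an acyl-CoA synthetase of the family that prepares acids for glycine conjugation, rose by 0.99 ± 0.16 in log2 in ketogenic and by 0.81 ± 0.15 in high-fat livers (edgeR adjusted p = 0.00063 and 0.00346). Gnmt, the glycine N-methyltransferase, fell by 1.04 ± 0.27 in ketogenic livers (edgeR adjusted p = 0.0185). That call was lost without control replicate 5 (0.0543) and with a replicate block (0.0516). Leaving out 1 library in turn gave 1 to 5 transferase calls in ketogenic and 1 to 3 in high-fat livers. Of 21 transcription factors that sense foreign compounds, sterols or hormones, 1 was higher and 1 lower in ketogenic and 2 higher and 0 lower in high-fat against control livers, with 1 to 3 and 0 to 4 calls when 1 library was left out. Nr1i3, which encodes the xenobiotic receptor CAR, was at 392 ± 98.6 CPM in ketogenic, 248 ± 53.4 CPM in high-fat and 144 ± 18.4 CPM in control livers (SD, n = 5, 5 and 4). It rose by 1.44 ± 0.21 in log2 in ketogenic livers (edgeR adjusted p = 0.000377, held in all 23 alternatives). In high-fat livers it rose by 0.79 ± 0.21 (adjusted p = 0.0219), a call lost without high-fat replicate 3 or 5 (0.0573 and 0.0525) or control replicate 4 or 5 (0.0821 and 0.0663) and with control replicate 1 put back (0.0573). That call was also lost with a replicate block (edgeR adjusted p = 0.0524).

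**Figure D5:**
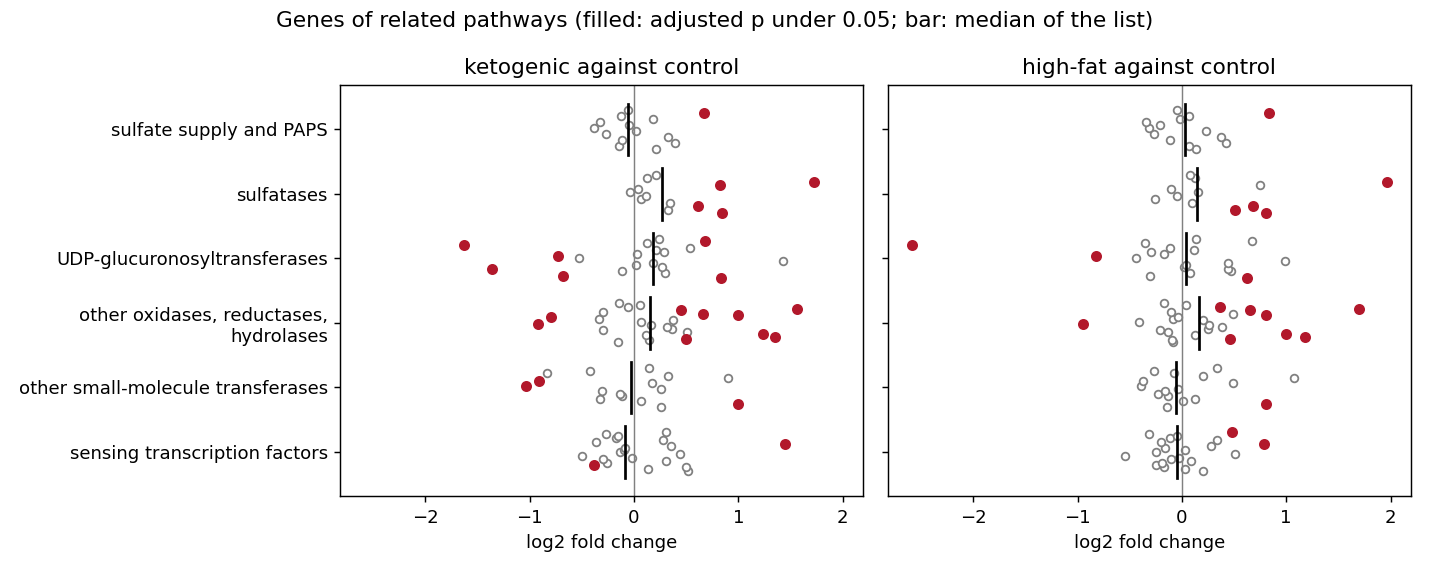
Log2 fold change (edgeR) of each tested gene of 6 related lists in ketogenic against control and high-fat against control livers; filled red points have an adjusted p under 0.05, and black bars are list medians. The bars lie close to 0, from -0.09 to 0.27 in ketogenic and from -0.06 to 0.16 in high-fat livers, with single genes such as Sulf2 (1.73 and 1.96) far from them.

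The genes whose log2 CPM followed each member most closely over the 14 libraries are given as a description. They come with Pearson's r and no p-value, since the libraries share diets and composition. Only genes with a symbol were searched, and those with names of predicted genes, clones, pseudogenes or mitochondrial genes were left out. Fmo1 was closest to Hsd17b12 (r = 0.952; 0.854 after each diet's mean was subtracted) and to Fabp2 (0.949; 0.791). Sult1b1 was closest to Sugct (0.948; 0.902) and Suclg1 (0.945; 0.896). Sult1d1 was closest to Cyp2c29 (0.907; 0.911), one of a family of near-identical cytochrome P450 genes. Sult2a8 was closest to Mup11 (0.964; 0.975), one of the near-identical major urinary protein genes, and its r was 0.982 without ketogenic replicate 5. Sult5a1 was closest to Cyb5rl (0.926; 0.925). Fmo2 was closest to Pea15a (0.942; 0.925), Fmo4 to Tlnrd1 (0.891; 0.827) and Sult1a1 to S100a16 (0.919; 0.899). Fmo5 had the loosest best match of the 9 genes, Vma21 (0.786; 0.788).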

How the data were processed

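Stranded libraries were prepared from poly(A) RNA of mouse liver, per the labels' protocols. Named without roles in the submitters' processing notes are build GRCm39, DESeq2 1.36.0, featureCounts 1.6, STAR 2.7.9a and cutadapt 1.16. The authors deposited raw read counts per Ensembl gene; the sources used here give no annotation release, strand setting or rule for reads that match several genes.

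From these counts, genes passing filterByExpr (count of at least 10, total of at least 15) were retained, normalized by TMM (factors 0.8856 to 1.215) and fitted over the 3 diets with robust glmQLFit and two-sided glmQLFTest in edgeR 4.0.16 (R 4.3.3), with Benjamini-Hochberg adjustment over all tested genes. The SE is the log2 fold change over the square root of F. No 2 of the 14 libraries held identical counts. Symbols, exon lengths (for CPM per kb), neighbours and promoters came from GRCm38 annotations, so no coordinates of the counted genes are given. Symbols matched 98.2% of tested IDs. The code was tested on simulated data.

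The members and lists were chosen with earlier results of these data known. Named beyond the 9 genes were every other SULT and FMO gene with a value, up to 3 called genes per list and comparison with the smallest adjusted p, and the 2 genes most like each member, of which part is printed; some are not reported here. Alternatives were a replicate block, DESeq2 size factors, library totals, DESeq2 1.42.0, limma-voom (limma 3.58.1), no filter, fits of only the diets compared, control replicate 1 put back, a term for library numbers under 10, and leaving out each library in turn, 23 in all; for the lists these were chosen after seeing the data. Intervals cover the spread between libraries only.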

Additional observations from a re-analysis of the deposited data

Results flagged for a closer look

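Within each diet, 39 sets of library values of the SULT and FMO genes tested were checked for a library far from the others by Dixon's criterion, and 3 exceeded its 95% critical value, which chance alone gives in about 1 in 20 sets. Ketogenic replicate 5 stood far above the other ketogenic libraries for Fmo2, at 65.4 CPM, and for Sult1e1, at 7.32 CPM. High-fat replicate 3 stood far below the other high-fat libraries for Sult1d1, at 102 CPM. The control library that the submitters excluded, replicate 1, was above all 4 other controls for 2 of the 13 genes compared, with Fmo2 at 32.0 CPM, where the others had 15.9 to 26.9 CPM, and Sult1c2 at 9.58 CPM, where the others had 4.18 to 9.57 CPM. In the same library Sult5a1, Fmo4 and Fmo5 were below all other controls, at 1.86, 7.11 and 1159 CPM.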

How the results depend on the processing

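Over 23 alternatives, Fmo1 in ketogenic against control livers kept its call in all, and the other calls of members were lost in 4 to 8. With a replicate block, 1 member was called in ketogenic against control livers and 15 genes in all in ketogenic against high-fat livers. The labels do not say that equal numbers pair the samples, and correlations of so few pairs cannot settle it. Over 13 pairs of libraries with the same number, deviations from the diet means correlated at -0.404 to 0.418, 3 pairs over 0.1. Of 14 libraries, 3 correlated best with their own number. The count over all genes in ketogenic against high-fat livers was 9, and it was 15 with library totals, 173 with DESeq2, 17 with limma-voom, 26 with no filter and 1 in a fit of those diets alone. Members called in high-fat against control livers were 2 with library totals, 0 with no filter (Fmo1, adjusted p = 0.0544) and 3 in the fit of those diets alone; in ketogenic against control livers that kind of fit called 1. Library totals split the high-fat against control calls into 1302 higher and 420 lower, where TMM gave 1016 and 733, and the ketogenic against control calls into 1826 and 368, where TMM gave 1093 and 673. Leaving out 1 library in turn gave 1056 to 2201 calls in ketogenic against control, 934 to 2617 in high-fat against control and 1 to 315 in ketogenic against high-fat livers, with 1 to 5, 0 to 2 and 0 to 1 members among them. Ketogenic replicate 5 set the highest of these for ketogenic against high-fat (315), for high-fat against control (2617) and for members in all 3 comparisons. Among other settings, signs turned for Sult2a8 in ketogenic against control livers with the block (-0.30), limma-voom (-0.29) and the library number term (-0.016), and Fmo5 there with library totals (0.16) and control replicate 1 put back (0.049). Without 1 library, the ranges that crossed 0 were -0.16 to 0.29 for Sult2a8, -0.12 to 0.12 for Fmo5 and -0.055 to 0.61 for Fmo2 in ketogenic against control, -0.044 to 0.19 for Fmo5 and -0.013 to 0.16 for Sult1a1 in high-fat against control, and -0.0081 to 0.083 for Fmo1 in ketogenic against high-fat livers. The cause of these shifts was not tested. The interval of Sult2a8 spans a doubling either way, and levels of Sult1e1 near 1 CPM limit what that gene can show.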
